A study of Homo sapiens with 6 samples.

Results

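The genes described here bring glucose into the cell, trap it as a phosphate ester, commit it to glycolysis and sense the sugar phosphate that results. They are 10 of the 20289 genes of the deposited table, chosen by name: the glucose carriers SLC2A1 and SLC2A3, the hexokinases HK1 and HK2, the phosphofructokinase subunit PFKP, the regulatory enzymes PFKFB3 and PFKFB4, the sugar-sensing factor MLXIP (also called MondoA), and its target genes TXNIP and ARRDC4. Each name matched 1 row, and all 10 were among the 12920 genes that passed the filter on low counts. The 6 libraries came from SW480, a colon adenocarcinoma line of human origin that has long been in culture. The control group LV-NC (genotype given as WT, treatment as none or LV-NC) and the group MUCP1-FLAG, labelled as overexpressing the FLAG-tagged microprotein MUCP1, had 3 libraries each, called biological replicates. All cultures grew in L-15, which by its recipe holds galactose in place of glucose, with serum added; whether glucose was added was not given in the sources used here. The labels do not give a clone, passage, day or batch, so the p-values measure the spread between these libraries.

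Glucose enters most cells through SLC2A carriers and is phosphorylated by hexokinase, which keeps it inside. MondoA, paired with MLX, moves to the nucleus when glucose 6-phosphate builds up and switches on TXNIP and ARRDC4. Both encode alpha-arrestins, and TXNIP in turn lowers glucose uptake by drawing SLC2A carriers off the cell surface, a feedback that is much studied in tumour cells. PFKFB enzymes set the level of fructose 2,6-bisphosphate, the main activator of phosphofructokinase.

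In MUCP1-FLAG cells 1 of the 10 genes rose, SLC2A3, and 3 fell, TXNIP, HK2 and SLC2A1. The fall of TXNIP was 1.90-fold and the rise of SLC2A3 1.49-fold, while HK2 and SLC2A1 moved by 1.15-fold and 1.11-fold. The other 6 genes, HK1, PFKP, PFKFB3, PFKFB4, MLXIP and ARRDC4, did not pass the test. A call is an adjusted p under 0.05 in edgeR's quasi-likelihood F test over all tested genes, of which 16.1% were called, 8.35% as higher and 7.71% as lower. The libraries of the 2 groups did not overlap in CPM in these same 4 genes, against 33.1% of all tested genes. In such bulk samples a smaller share of expressing cells and less RNA per cell cannot be told apart. The median log2 fold change of the 10 genes was −0.00091, beside −0.0042 over all tested genes.

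Library totals ran from 17333329 to 23282604 counts, and mitochondrial transcripts took 5.91% to 6.61% of them. The table has 0 rows with the symbol MUCP1, so the overexpression itself was not checked here. Of 8 markers of colon epithelial cells 7 were counted in every library, with a summed level of 6393 to 7070 CPM (library-scaled counts, by TMM) in LV-NC and 6875 to 7054 in MUCP1-FLAG, and KRT20 was at or near 0. That sum is mostly KRT8 and KRT18, and of the 7 tested markers 3 fell and 1 rose. CDH1, the E-cadherin gene, had 31.2 ± 0.648 CPM in LV-NC and 14.9 ± 0.241 in MUCP1-FLAG (−1.06 ± 0.08 on the log2 scale, adjusted p 3.26e-09 by edgeR), a larger log2 change than that of any of the 10 genes. EPCAM (−0.33 ± 0.05) and VIL1 (−0.40 ± 0.10) also fell and KRT19 rose (0.17 ± 0.05), and the part of these shifts in the changes of the 10 genes was not tested. Of 15 markers of fibroblasts, blood cells and endothelium 7 were at 0 in all libraries, among them COL1A2, PTPRC and PECAM1, and no such list exceeded 4.17 CPM in sum.

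**Figure D1:**
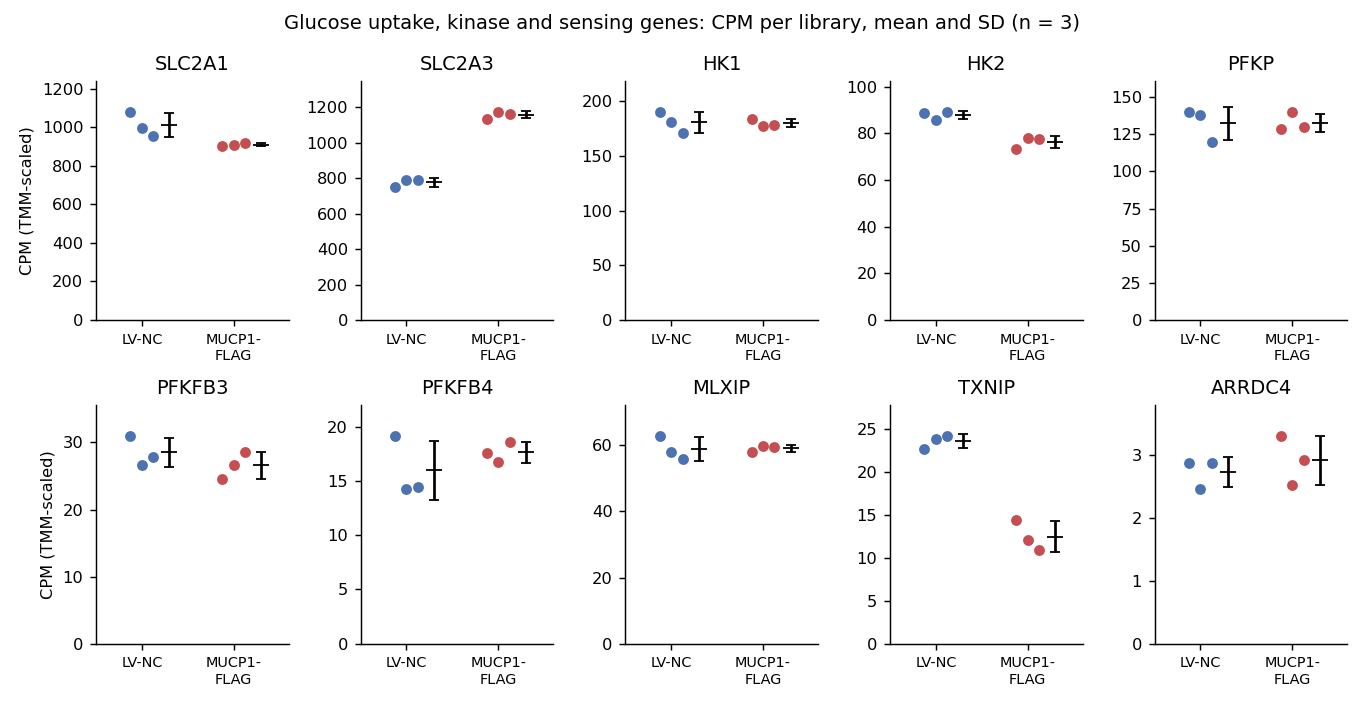
CPM of the 10 genes in each library (points), with the mean and SD of 3 libraries beside them; every vertical axis starts at 0. LV-NC and MUCP1-FLAG lie apart for SLC2A1, SLC2A3, HK2 and TXNIP and overlap for the other 6 genes.

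The carriers moved in opposite directions. SLC2A3, a high-affinity glucose carrier best known from neurons, had 749, 791 and 793 CPM in LV-NC replicates 1 to 3 and 1136, 1173 and 1165 CPM in MUCP1-FLAG. All MUCP1-FLAG libraries stood well above all LV-NC libraries, and the libraries of a group were close together. The log2 fold change of SLC2A3 was 0.57 ± 0.04 (standard error, n = 3 per group; edgeR adjusted p 5.02e-09). Of all tested genes, 5.36% had an absolute log2 fold change at least as large.

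SLC2A1, the widespread carrier of basal glucose uptake, had 1077, 996 and 954 CPM in LV-NC and 901, 906 and 919 CPM in MUCP1-FLAG. The groups did not overlap, but LV-NC replicate 3 lay close to the MUCP1-FLAG libraries and LV-NC replicate 1 lay highest. The log2 fold change of SLC2A1 was −0.15 ± 0.05 (edgeR adjusted p 0.0318). That call was lost, with adjusted p 0.0876 to 0.101, when 1 library was left out, whichever it was except LV-NC replicate 3, while the log2 fold change stayed between −0.19 and −0.10 over the 6 left-out fits.

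On the FPKM scale, which divides by gene length and so allows genes to be compared, SLC2A1 was 1.82 times as high as SLC2A3 in LV-NC and 1.07 times as high in MUCP1-FLAG. The ratio of SLC2A3 to SLC2A1 was 0.502, 0.557 and 0.596 in LV-NC replicates 1 to 3 and 0.956, 0.930 and 0.918 in those of MUCP1-FLAG. By FPKM, SLC2A1 was thus the higher carrier in every library, by a narrow margin in MUCP1-FLAG. By counts SLC2A3 was the higher in all MUCP1-FLAG libraries (mean 23087 against 18094 for SLC2A1). The order in MUCP1-FLAG therefore rests on the lengths used for FPKM, and the length implied for SLC2A1 varied between libraries by 2.63% (coefficient of variation). The log2 ratio rose by 0.76 between the group means, and by 0.72 when taken from counts. For both, the exact two-sided permutation p was 0.1, the smallest that 3 against 3 libraries can give. Of the summed FPKM of SLC2A1, SLC2A3 and 15 other hexose carriers, SLC2A3 made up 34.2% ± 1.91 (SD, n = 3) in LV-NC and 46.4% ± 0.470 in MUCP1-FLAG, and SLC2A1 62.0% ± 1.88 and 49.7% ± 0.532. That sum was 600.3 ± 14.0 FPKM in LV-NC and 648 ± 15.9 FPKM in MUCP1-FLAG, with no overlap between the groups.

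SLC2A3 (ENSG00000059804) lies on GRCh38 chromosome 12 at 7919230 to 7936275, minus strand, and 28081 bases from it lies SLC2A14, a near-identical copy on the same strand. Reads of the pair can be misassigned, so the value of SLC2A3 is uncertain to that extent. SLC2A14 held 12 to 32 counts per library, against 14357 to 26944 for SLC2A3. With the counts of both genes summed, an alternative chosen after seeing the data, the log2 fold change was again 0.57. SLC2A1 (ENSG00000117394) lies on chromosome 1 at 42925375 to 42959176, minus strand, and shares 128 exonic bases with the antisense gene SLC2A1-AS1; whether strand was used in counting was not given in the sources used here.

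**Figure D2:**
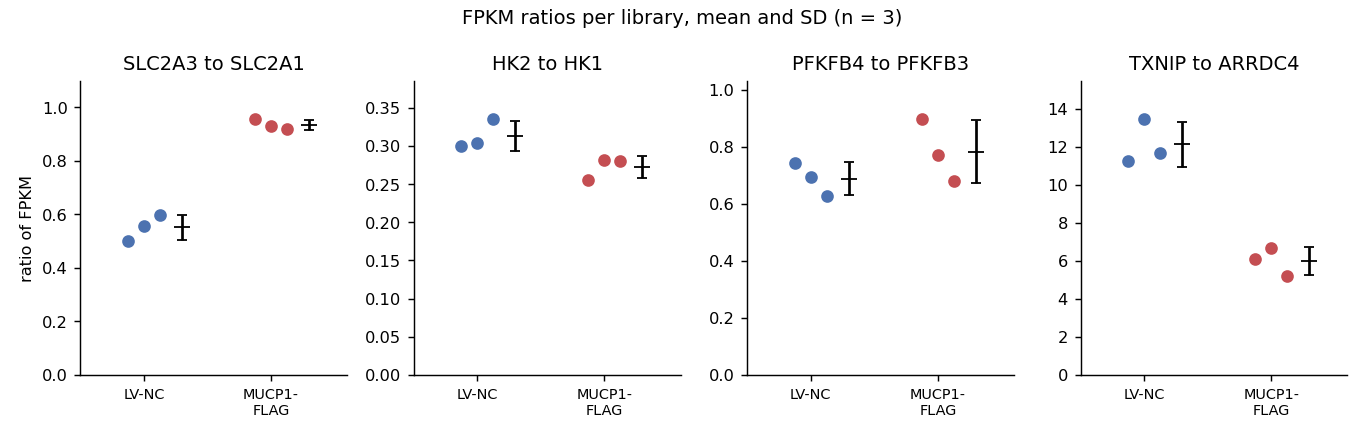
FPKM ratios within each library (points), with mean and SD of 3 libraries; axes start at 0. SLC2A3 to SLC2A1 lay between 0.502 and 0.596 in LV-NC and between 0.918 and 0.956 in MUCP1-FLAG, TXNIP to ARRDC4 and HK2 to HK1 were lower in all MUCP1-FLAG libraries, and PFKFB4 to PFKFB3 overlapped.

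Of HK1 and HK2, HK2 passed the test. HK2, the inducible form that binds mitochondria and is raised in many tumours, had 88.9, 85.7 and 89.1 CPM in LV-NC and 73.2, 77.8 and 77.7 CPM in MUCP1-FLAG. The lowest LV-NC library stood above the highest MUCP1-FLAG library. Its log2 fold change was −0.20 ± 0.05 (edgeR adjusted p 0.0114). The call was lost without MUCP1-FLAG replicate 1 (adjusted p 0.0659) and in the limma fits of log2(FPKM + 1) and of log2(FPKM + 0.1) (adjusted p 0.0656 and 0.0652).

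HK1, the constitutive form, had 190, 181 and 171 CPM in LV-NC and 184, 177 and 179 CPM in MUCP1-FLAG. The MUCP1-FLAG values fell inside the LV-NC range. The log2 fold change of HK1 was −0.0074 ± 0.05 (edgeR adjusted p 0.942), with a 95% interval of −0.11 to 0.10. On the FPKM scale HK1 was the main hexokinase transcript in both groups, at 50.4 ± 2.40 and 49.6 ± 1.13 FPKM against 15.8 ± 0.397 and 13.5 ± 0.469 FPKM for HK2 (SD, n = 3). The ratio of HK2 to HK1 was 0.300, 0.305 and 0.336 in LV-NC replicates 1 to 3 and 0.256, 0.282 and 0.280 in those of MUCP1-FLAG. Its groups did not overlap (exact two-sided permutation p 0.1, the smallest possible).

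Within the summed FPKM of 4 hexokinase genes, HK1 made up 73.7% ± 1.23 in LV-NC and 76.9% ± 1.03 in MUCP1-FLAG, and HK2 23.1% ± 1.03 and 21.0% ± 0.854. The rest was nearly all HKDC1, another member of the family, which itself fell by 0.60 on the log2 scale (SE 0.13, edgeR adjusted p 0.00307), from 7.77 ± 0.337 to 5.11 ± 0.439 CPM. HK3 had 3 counts or fewer in each library. HK2 (ENSG00000159399) lies on chromosome 2 at 74833981 to 74893359 and HK1 (ENSG00000156515) on chromosome 10 at 69269984 to 69401884, both on the plus strand.

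Neither phosphofructokinase nor its activating enzymes passed the test. PFKP, the platelet-type subunit of 6-phosphofructo-1-kinase, had 140, 138 and 119 CPM in LV-NC and 129, 140 and 130 CPM in MUCP1-FLAG. The groups overlapped. The log2 fold change of PFKP was 0.0056 ± 0.06 (edgeR adjusted p 0.963), with a 95% interval of −0.12 to 0.13. By FPKM, PFKP made up 36.7% ± 2.11 of the 3 subunits in LV-NC and 35.8% ± 1.89 in MUCP1-FLAG, beside PFKM with 38.1% ± 3.96 and 38.5% ± 1.27 and PFKL with 25.2% ± 2.14 and 25.7% ± 0.690. The shares of all 3 subunits overlapped between the groups.

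PFKFB3, the PFKFB form with the strongest kinase side, had 31.0, 26.7 and 27.9 CPM in LV-NC and 24.5, 26.6 and 28.6 CPM in MUCP1-FLAG. The highest value belonged to LV-NC replicate 1 and the lowest to MUCP1-FLAG replicate 1, with the other 4 between. Its log2 fold change was −0.10 ± 0.08 (edgeR adjusted p 0.457, 95% interval −0.27 to 0.07).

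PFKFB4, a form known from testis and from hypoxic tumour cells, had 19.1, 14.3 and 14.4 CPM in LV-NC and 17.6, 16.7 and 18.6 CPM in MUCP1-FLAG. LV-NC replicate 1 was the highest of all 6 libraries, while the other LV-NC libraries were the lowest. The log2 fold change of PFKFB4 was 0.15 ± 0.11 (edgeR adjusted p 0.392, 95% interval −0.07 to 0.37). Without LV-NC replicate 1 it was 0.29 with an adjusted p of 0.0359, so this library decides whether PFKFB4 is called. The deposited FPKM of PFKFB4 differed from its counts: the log2 ratio of mean FPKM in the authors' deposited table was 0.0025, and the length implied by count and FPKM varied between libraries by 7.35% (coefficient of variation). Among the other 9 genes this figure was 4.53% for MLXIP, 4.17% for PFKFB3, 2.63% for SLC2A1 and under 1% for the rest. PFKFB4 shares 289 exonic bases with UCN2 on the same strand.

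The ratio of PFKFB4 to PFKFB3 by FPKM was 0.688 ± 0.0577 in LV-NC and 0.783 ± 0.110 in MUCP1-FLAG (exact two-sided permutation p 0.3), a log2 difference of 0.18. From counts the log2 difference of this ratio was 0.26, with the groups apart (exact two-sided permutation p 0.1, the smallest possible). By FPKM it was 0.078 when MUCP1-FLAG replicate 1 was left out, 0.12 when LV-NC replicate 3 was and 0.28 when MUCP1-FLAG replicate 3 was. Over the 4 ratios tested by FPKM, the exact permutation p-values were adjusted by the Benjamini-Hochberg method. They were then 0.133 for SLC2A3 to SLC2A1, HK2 to HK1 and TXNIP to ARRDC4, and 0.3 for PFKFB4 to PFKFB3. With 0.1 as the smallest possible p, none could pass 0.05 whatever the data. PFKFB2, the heart-type form, was the highest PFKFB transcript, with 43.2% ± 4.03 and 44.3% ± 1.37 of the summed FPKM of 4 genes, before PFKFB3 with 33.1% ± 1.49 and 31.0% ± 2.27 and PFKFB4 with 22.8% ± 2.79 and 24.1% ± 1.90. PFKP lies on chromosome 10 at 3066333 to 3137712, PFKFB3 on chromosome 10 at 6144934 to 6254644, and PFKFB4 on chromosome 3 at 48517684 to 48562015, minus strand.

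**Figure D3:**
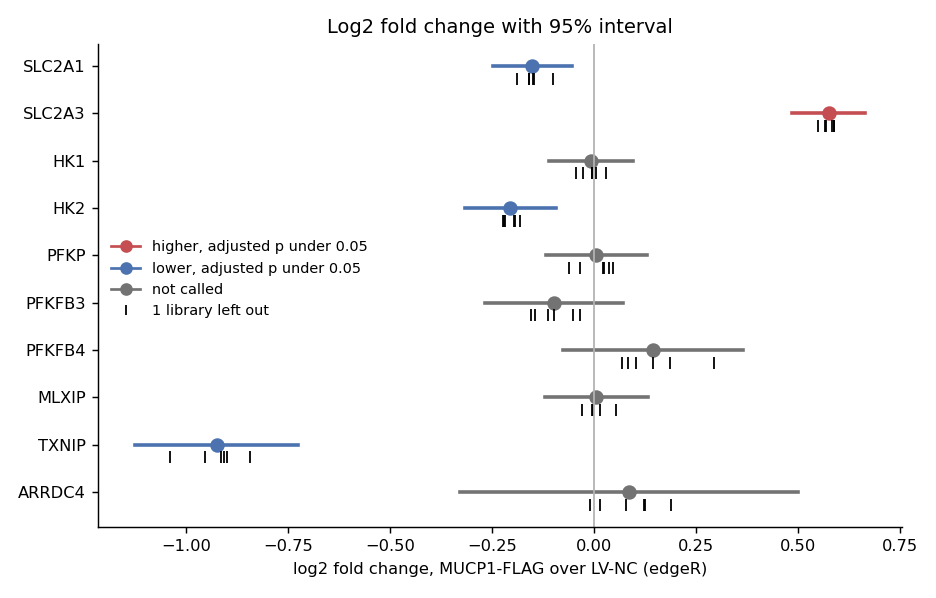
Log2 fold change of MUCP1-FLAG over LV-NC from edgeR (circles) with its 95% interval (lines), and the values with 1 library left out (ticks under each line). TXNIP stayed between −1.04 and −0.84 and SLC2A3 between 0.55 and 0.59 with any library left out, and the interval of ARRDC4 is the widest.

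The sensing arm split between its target genes. TXNIP and ARRDC4 are paralogs, and both are known targets of MondoA, so the bases before their start sites are shown to compare the elements they carry. The sequences are the 220 bases from 250 to 31 before a RefSeq start (GRCh38.p14), 5′ to 3′ on the strand of the gene. They lie at chr1:145996610-145996829 (minus strand) for TXNIP and chr15:97960453-97960672 (plus strand) for ARRDC4. TXNIP has 2 such windows in the RefSeq promoter table. The window with matches is shown, and the other held none of the elements searched. Capitals mark, in TXNIP, the paired half-sites of a carbohydrate response element, searched as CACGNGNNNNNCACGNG, in ARRDC4 an E-box, CACGTG, and in both CCAAT boxes, each on both strands.
TXNIP: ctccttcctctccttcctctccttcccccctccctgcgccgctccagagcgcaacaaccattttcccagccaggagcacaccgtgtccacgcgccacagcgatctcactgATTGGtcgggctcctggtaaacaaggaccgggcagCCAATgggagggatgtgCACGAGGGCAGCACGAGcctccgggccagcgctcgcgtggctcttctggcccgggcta
ARRDC4: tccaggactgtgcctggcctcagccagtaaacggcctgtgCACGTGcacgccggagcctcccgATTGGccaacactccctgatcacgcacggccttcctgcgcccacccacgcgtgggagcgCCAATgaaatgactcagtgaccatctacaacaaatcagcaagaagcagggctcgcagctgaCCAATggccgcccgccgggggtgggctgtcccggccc

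The carbohydrate response element of TXNIP, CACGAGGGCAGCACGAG, spans bases −88 to −72 from the start, and its CCAAT boxes begin at −140 and −105. The element was found in 14 of 35116 such windows of the RefSeq promoter table (0.0399%), and TXNIP was the only gene of the 9 members with a promoter there that held it. In the looser form CNCGNGNNNNNCNCGNG, which contains the first, it was in 1.58% of windows, among them 1 of the 4 of PFKP. The E-box of ARRDC4 begins at −210 and its CCAAT boxes at −187, −128 and −67. An E-box was in 5.40% of windows, and HK2 and PFKFB3 also have a window with one. A CCAAT box was in 29.8% of windows. These matches describe letters in a window and do not show binding.

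TXNIP had 22.6, 23.8 and 24.2 CPM in LV-NC and 14.4, 12.0 and 10.9 CPM in MUCP1-FLAG, from 434 to 514 and from 213 to 276 counts. The lowest LV-NC library was well above the highest MUCP1-FLAG library. The log2 fold change of TXNIP was −0.92 ± 0.10 (edgeR adjusted p 6.96e-07, n = 3 per group). Of all tested genes 1.69% had an absolute log2 fold change at least as large.

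ARRDC4 had 2.87, 2.46 and 2.88 CPM in LV-NC and 3.30, 2.52 and 2.92 CPM in MUCP1-FLAG, from 53 to 58 counts per library. The groups overlapped. Its log2 fold change was 0.09 ± 0.20 (edgeR adjusted p 0.817), with a 95% interval of −0.33 to 0.50, which lies wholly above that of TXNIP, −1.13 to −0.72. As a fold, the interval of ARRDC4 runs from 0.797 to 1.41 times its LV-NC level, so changes within it were not detectable at this depth.

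By FPKM, TXNIP was 11.2, 13.5 and 11.7 times as high as ARRDC4 in LV-NC replicates 1 to 3 and 6.11, 6.69 and 5.22 times as high in MUCP1-FLAG. TXNIP stayed the higher of the pair in every library. The log2 ratio fell by 1.02 between the group means, again without overlap (exact two-sided permutation p 0.1, the smallest possible). FPKM values of ARRDC4 were deposited to 2 decimals at 0.61 to 0.81, so this ratio is coarse. Among 6 alpha-arrestin genes TXNIP made up 16.9% ± 1.49 of the summed FPKM in LV-NC and 10.3% ± 1.42 in MUCP1-FLAG, and ARRDC4 1.40% ± 0.146 and 1.73% ± 0.197.

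MLXIP, the MondoA gene itself, had 62.8, 57.9 and 55.8 CPM in LV-NC and 57.9, 59.7 and 59.5 CPM in MUCP1-FLAG. The MUCP1-FLAG libraries lay inside the LV-NC range. Its log2 fold change was 0.0056 ± 0.06 (edgeR adjusted p 0.964, 95% interval −0.12 to 0.13). For MLX, the partner of MondoA, the log2 fold change was 0.10 ± 0.06 (edgeR adjusted p 0.271), and MLXIPL, the related factor ChREBP, −0.23 ± 0.19 (edgeR adjusted p 0.453). By FPKM, MLXIP stood at 19.1% ± 1.77 and 18.6% ± 0.243 of the sum of these 3 genes, MLX at 77.2% ± 1.66 and 78.4% ± 0.375. TXNIP (ENSG00000265972) lies on chromosome 1 at 145992435 to 145996600, minus strand, ARRDC4 (ENSG00000140450) on chromosome 15 at 97960698 to 97973838, and MLXIP (ENSG00000175727) on chromosome 12 at 122078722 to 122147347.

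The order of the 10 genes by mean FPKM changed at TXNIP, and PFKFB3 and MLXIP exchanged places. In LV-NC it ran SLC2A1, SLC2A3, PFKP, HK1, HK2, PFKFB3, TXNIP, MLXIP, PFKFB4 and ARRDC4, from 372 ± 19.7 down to 0.680 ± 0.0608 FPKM. Neighbours whose libraries overlapped there were PFKP and HK1, PFKFB3 and TXNIP, and TXNIP and MLXIP. In MUCP1-FLAG TXNIP stood ninth, at 4.26 ± 0.616 FPKM after 8.21 ± 0.225 FPKM in LV-NC, below PFKFB4 (5.69 ± 0.438 FPKM) without overlap. MLXIP (7.59 ± 0.338 FPKM) stood above PFKFB3 (7.33 ± 0.797 FPKM) in MUCP1-FLAG, but their libraries overlapped, as did those of PFKP and HK1.

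**Figure D4:**
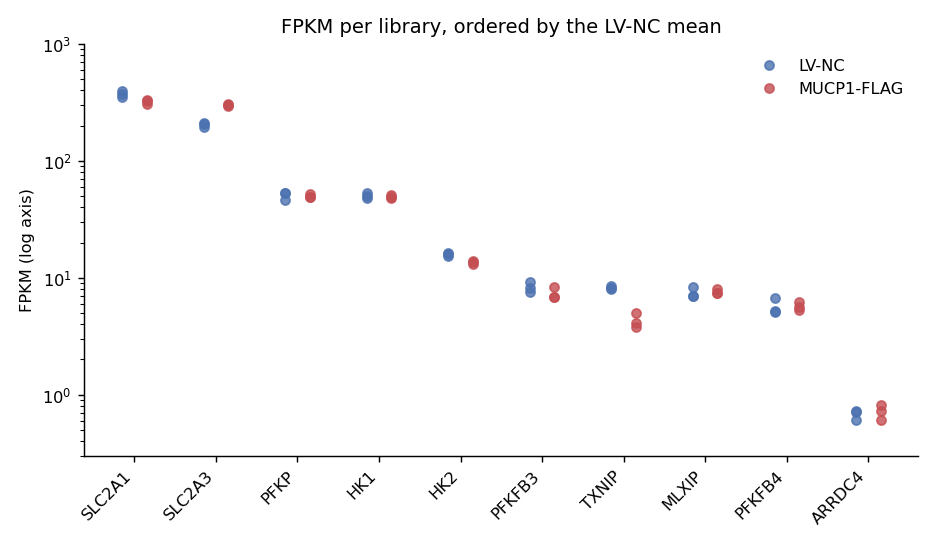
FPKM of the 10 genes in each library (points, log axis), in the order of the LV-NC means. SLC2A3 rises towards SLC2A1 in MUCP1-FLAG, and TXNIP falls from the level of PFKFB3 to below that of PFKFB4.

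Of the 10 genes, 4 in the authors' deposited table had an adjusted p under 0.05, beside 7.50% of all 20289 genes. That share also counts genes that did not pass the filter on low counts, which all 10 genes passed. They were SLC2A3 (adjusted p 2.22e-43 in the authors' deposited table), TXNIP (1.06e-11), HK2 (0.0149) and SLC2A1 (0.0199). The log2 ratio of mean FPKM of SLC2A1 in the authors' deposited table was −0.21, a larger fall than the −0.15 from counts. Of the 10 genes, 5 (SLC2A1, HK1, HK2, PFKFB3 and PFKP) belong by the deposited pathway terms to the HIF-1 signalling pathway, of whose 89 tested genes 12 rose and 8 fell in the edgeR fit, beside 8.35% higher and 7.71% lower over all tested genes. The AMPK signalling pathway holds PFKFB3, PFKFB4 and PFKP, and 8 of its 103 tested genes rose and 5 fell, which is near or below those shares. TXNIP, ARRDC4, SLC2A3 and MLXIP are in neither.

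Around these genes, 7 lists of other pathway genes held 73 names, of which 60 were tested. In them 14 genes rose and 3 fell, beside 8.35% higher and 7.71% lower over all tested genes. The count of each list below is to be read against these shares. Of the rises, 9 were in the list of glycolysis below phosphofructokinase. That list had 14 tested genes and a median log2 fold change of 0.20, beside −0.0042 over all tested genes. Its genes with the smallest adjusted p were the aldolase ALDOC (1.53 ± 0.21, edgeR adjusted p 3.2e-05), the lactate dehydrogenase genes LDHA (0.30 ± 0.04) and LDHB (0.25 ± 0.04), and GAPDH (0.31 ± 0.05). PGK1 and SLC16A1, also among the 9, lost their calls in 6 and 3 of 14 alternative fits, both limma fits among them, and the other 7 kept theirs in all 14.

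Of 10 tested other hexose carriers 2 rose and 0 fell. Their median log2 fold change was −0.22, beside −0.0042 over all tested genes. That median rests in part on genes near the floor, such as SLC2A9 (1.01 ± 0.173 CPM in LV-NC, −0.22 ± 0.33 on the log2 scale). SLC2A6, a carrier of lysosomal membranes, rose from 17.2 ± 1.54 to 23.4 ± 0.932 CPM (0.44 ± 0.09, edgeR adjusted p 0.000942). SLC2A8, another intracellular carrier, rose by 0.42 ± 0.14 (edgeR adjusted p 0.0405), a call lost in 11 of 14 alternative fits, with adjusted p up to 0.233. In the list of other glucose phosphorylation and glucose 6-phosphate genes, 1 of 8 tested genes rose and 1 fell. UGP2, which makes UDP-glucose, rose by 0.24 ± 0.05 (edgeR adjusted p 0.00236), beside the fall of HKDC1 given with the hexokinases.

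In the list of other phosphofructokinase and bisphosphatase genes 0 of 5 tested genes were called by edgeR, DESeq2 or limma, and 1 had an unadjusted edgeR p under 0.05. The smallest p-values were those of the gluconeogenic bisphosphatase FBP1 (−0.71 ± 0.29, edgeR adjusted p 0.101) and of PFKFB2 (−0.10 ± 0.06, 0.303). Of 10 other genes of the Mondo, MLX and MAX network 1 rose and 2 fell. MXD3, a MAX partner that opposes MYC, rose from 1.68 ± 0.744 to 3.53 ± 0.424 CPM (1.06 ± 0.26, edgeR adjusted p 0.00742). MYC had −0.18 ± 0.04 (edgeR adjusted p 0.0071) and MXI1, another MYC antagonist, −0.32 ± 0.09 (0.0183). The call of MYC was lost without LV-NC replicate 2 (adjusted p 0.0747) or MUCP1-FLAG replicate 3 (0.0519), and that of MXI1 without either of these libraries (0.123 and 0.116) and in both limma fits.

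Of 7 tested other alpha-arrestin and thioredoxin genes 1 rose, TXNRD2, the mitochondrial thioredoxin reductase (0.36 ± 0.09, edgeR adjusted p 0.0096; 0.0838 without MUCP1-FLAG replicate 3). TXN, the thioredoxin that TXNIP binds, had −0.06 ± 0.06 (edgeR adjusted p 0.537). The alpha-arrestin ARRDC3 had −0.13 ± 0.08 (edgeR adjusted p 0.265) and ARRDC1 −0.21 ± 0.08 (0.0991), so that TXNIP was the alpha-arrestin gene that passed the test. AMPK, the energy-sensing kinase that acts on TXNIP and on PFKFB proteins, had 0 of 6 tested subunit genes called by edgeR, DESeq2 or limma and 1 with an unadjusted edgeR p under 0.05. The smallest p-values were those of PRKAG1 (−0.13 ± 0.06, edgeR adjusted p 0.139) and PRKAA2 (−0.25 ± 0.13, 0.232).

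**Figure D5:**
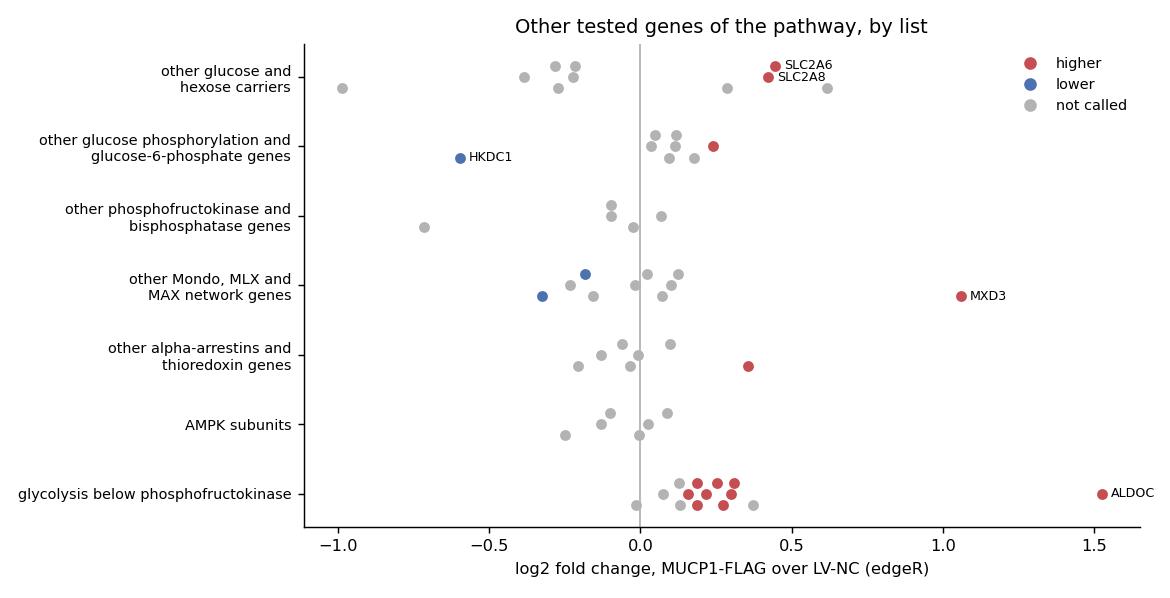
Log2 fold change of MUCP1-FLAG over LV-NC (edgeR) for the 60 tested genes of 7 lists, 1 point a gene, coloured by call. Red points (higher) gather in the glycolysis list, between 0.16 and 0.31 apart from ALDOC at 1.53, and the names of calls beyond 0.4 are printed.

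Genes with the most similar profile were sought among 9396 genes of at least 10 CPM, by the root mean square difference of centred log2 CPM over the 6 libraries. For SLC2A3 these were MTSS1 (0.0499), IFRD1 (0.0538) and DIAPH3 (0.0544), with log2 fold changes of 0.51, 0.51 and 0.55. For TXNIP LAMA3 (0.1004) and NOS3 (0.112) were nearest, with log2 fold changes of −1.05 and −0.89. These profiles were farther from TXNIP than those of the genes named for SLC2A3 from that gene. Log2 fold changes near those of SLC2A3 and TXNIP follow from choosing genes by profile.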

How the data were processed

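Per library the deposited table holds raw read counts (whole numbers) and FPKM, which the authors scaled by length and depth, beside their own log2 fold change, p-value and adjusted p-value per gene. Build GRCh38 and the tools fastp, HISAT2, featureCounts and DESeq2 appear in the submitters' processing notes; versions, strand setting and the authors' test were not given in the sources used here. The raw counts were tested with edgeR 4.0.16 in R 4.3.3 (quasi-likelihood F test, robust, TMM scaling, filterByExpr with a minimum count of 10), with Benjamini-Hochberg adjustment over 12920 genes. After ± stands the standard error for log2 fold changes and the SD of 3 libraries for all else. FPKM ratios were tested by exact permutation (SciPy 1.17.1). Alternatives used limma 3.58.1, DESeq2 1.42.0, other scalings and filters, the replicate number as a block, and each library left out. The edgeR script was tested on simulated data. The members and lists were chosen with earlier results of these data known. From each list the text names up to 4 called genes by adjusted p, or the 2 with the smallest p; MLX, MLXIPL, TXN, ARRDC1, ARRDC3 and PGK1, and the family shares, were added after their values were seen. A few genes of the lists and rules are not reported here and were left out of the counts per list. Coordinates are from GENCODE 29 (GRCh38), promoter sequences from RefSeq.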

Additional observations from a re-analysis of the deposited data

How the results depend on the processing

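TXNIP and SLC2A3 kept their direction and their calls in all 14 alternative fits, with log2 fold changes of −1.04 to −0.81 and 0.55 to 0.59. HK2 and SLC2A1 kept their direction in all 14 and lost their calls where stated beside their values. Over all genes, limma on log2(FPKM + 1) called 514 higher and 544 lower and on log2(FPKM + 0.1) 516 and 549, against 1079 and 996; leaving out a library gave 639 to 1323 higher and 624 to 1213 lower. Among the 10 genes, leaving out a library gave 1 to 2 higher and 1 to 3 lower calls, and among the genes of the 7 lists 11 to 16 higher and 1 to 4 lower. Log2 fold changes near 0 changed sign without a call: MLXIP (−0.0116) and PFKP (−0.0116) on library totals alone, and PFKP (−0.0114 and −0.0116) in the limma fits. With a library left out HK1 ranged from −0.045 to 0.0295, ARRDC4 from −0.0107 to 0.188, MLXIP from −0.0299 to 0.0545 and PFKP from −0.0612 to 0.0456. Libraries with the same replicate number shared little deviation (r 0.0024 to 0.0498 across genes), and not every library correlated best with its own number; with the replicate block 1005 genes were higher and 954 lower, and the same 1 higher and 3 lower of the 10 genes were called. Depth limits ARRDC4 most, with 53 to 58 counts per library.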
